A study of Mus musculus with 9 samples.

Results

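Regulators of G protein signalling (RGS) and the G protein subunit gene Gnai2 were examined in splenic B cells: Rgs1, Rgs2, Rgs3, Rgs10, Rgs13, Rgs14, Rgs16, Rgs18, Rgs19 and Gnai2, which are 10 of the 24459 rows of the expression table. They were picked by gene symbol, 1 row each, and were chosen by their FPKM in the 3 subsets, which were already known. Their levels and differences are therefore given as a description without p-values, calls among them describe where they fall against the thresholds, and adjusted p-values are printed only for other genes. RNA-seq had been performed on 3 splenic B cell subsets from mice 8 to 10 weeks old, with 3 libraries per subset, each from 1 sort of pooled spleens from 5 mice. FO (follicular) B cells were B220+IgMintCD21intCD23+CD93- with high IgD, BDL were sorted in the same gate with low IgD, and MZ (marginal zone) B cells were B220+IgMhiCD21hiCD23-CD93-. The labels give the strain as C57/BL6 and the study names B10.PL, and the strain was not tested here. The labels name no transgene and no treatment, and put the purity of the sorted cells near 99%. Libraries whose sample titles carry the same date have the same replicate number here.

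Heterotrimeric G proteins pass the signal of chemokine and lipid receptors into the cell. An activated receptor loads the alpha subunit with GTP, and RGS proteins speed the hydrolysis of that GTP and so shorten the signal. In B cells the inhibitory alpha subunit encoded by Gnai2 couples the chemokine receptors that guide cells into and within the follicle, and RGS proteins tune how strongly these cells respond. Small RGS proteins of the R4 subfamily (Rgs1, Rgs2, Rgs13, Rgs16 and Rgs18, together with the longer Rgs3) consist of little more than the RGS domain. Rgs10 and Rgs14 belong to the R12 subfamily and Rgs19 to the RZ subfamily.

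The sequence upstream of the transcription start is shown for Rgs2 and Rgs13, which are neighbours on chromosome 1 and were both highest in BDL, and for Rgs10, whose subset means differed by the largest ratio, 37.1-fold. Each line holds the 250 bases before the start, 5′ to 3′ on the strand of the gene, from RefSeq on assembly GRCm38.p6, with CG dinucleotides in capitals. The stretches lie at chr1:144004150-144004399 for Rgs2, chr1:144177373-144177622 for Rgs13 and chr7:128418173-128418422 for Rgs10, all on the minus strand.
Rgs2: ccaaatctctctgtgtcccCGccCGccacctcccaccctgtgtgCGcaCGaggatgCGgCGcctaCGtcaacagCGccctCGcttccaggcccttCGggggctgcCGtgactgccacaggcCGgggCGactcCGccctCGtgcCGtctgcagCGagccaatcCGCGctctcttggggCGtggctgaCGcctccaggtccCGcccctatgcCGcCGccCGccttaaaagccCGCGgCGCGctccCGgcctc
Rgs13: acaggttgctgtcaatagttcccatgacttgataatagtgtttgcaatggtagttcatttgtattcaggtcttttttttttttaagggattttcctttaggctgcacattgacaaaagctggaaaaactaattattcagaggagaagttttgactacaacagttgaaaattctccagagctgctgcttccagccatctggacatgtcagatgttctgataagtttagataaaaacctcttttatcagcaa
Rgs10: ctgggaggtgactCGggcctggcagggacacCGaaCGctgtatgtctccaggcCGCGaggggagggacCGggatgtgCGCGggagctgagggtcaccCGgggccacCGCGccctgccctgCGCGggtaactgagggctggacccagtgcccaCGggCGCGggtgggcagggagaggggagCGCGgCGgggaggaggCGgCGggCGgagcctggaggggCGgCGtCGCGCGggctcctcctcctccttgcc
The Rgs13 stretch held 0 CG dinucleotides at a GC content of 36.0%, and 7.87% of the 32851 promoters in the RefSeq table held as few. Rgs2 held 30 at 72.4% GC, a number that 5.94% of the promoters reached, and Rgs10 held 27 at 76.4% GC, which 8.56% reached. The medians over all promoters were 6 CG dinucleotides and 52.4% GC. The table had entries for 6 of the 10 genes, 9 entries in all, and had none for Rgs1, Rgs14, Rgs18 and Gnai2. TATAAA, searched on both strands, occurred in 12.4% of all promoters and, among the 9 entries, only in both entries of Rgs3. These letters describe the window and were not tested for function.

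Values were FPKM (fragments per kilobase of transcript, scaled to the number of fragments mapped), a scale on which genes can be compared per length. The table holds no read counts, and the steps between low values put the relative depth of the libraries at 0.903 to 1.22 of FO replicate 1, with BDL replicate 2 the deepest. The mean correlation of a library with the other libraries of its subset, across genes, was between 0.889 for BDL replicate 2 and 0.916. B lineage markers were high everywhere, with summed levels of 3120 to 3600 FPKM in FO, 3590 to 4310 FPKM in BDL and 2980 to 3860 FPKM in MZ B cells. Markers of FO B cells summed to 926 to 1090 FPKM in FO, 718 to 853 FPKM in BDL and 209 to 236 FPKM in MZ B cells, and markers of MZ B cells to 255 to 270, 217 to 231 and 975 to 1140 FPKM, respectively. Summed T cell markers stayed within 1.42 to 3.24 FPKM over the 9 libraries and were highest in replicate 3 of each subset, at 2.91, 3.24 and 3.05 FPKM in FO, BDL and MZ. Summed myeloid markers were 9.94, 10.2 and 12.1 FPKM in replicate 3 of FO, BDL and MZ and at most 4.54 FPKM in the other libraries. Plasma cell markers summed to 186 to 223 FPKM in FO, 128 to 207 FPKM in BDL and 224 to 296 FPKM in MZ B cells, most of it Irf4, and among the 6 of them Sdc1 and Prdm1 were called in a comparison. The part of other cells in the results was not tested. In these bulk libraries, fewer cells that express a gene and less RNA per cell cannot be told apart.

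Genes that averaged 0.5 FPKM or more across the libraries, 11597 rows in all, were compared between subsets as log2(FPKM + 0.1) with limma. The call required an adjusted p below 0.05 together with a difference of at least 2-fold. The 10 genes gave 9 that passed the minimum level, all except Rgs16. Between BDL and FO B cells, 2 of the 9 were called higher in BDL (Rgs10 and Rgs13), where 1.64% of all rows were, and 0 were called lower, where 0.267% of all rows were (1, Rgs14, was lower at an unadjusted p below 0.05). At the adjusted p alone 4 of the 9 passed, compared with 7.73% of all rows, and the libraries of the 2 subsets did not overlap for 5 of the 9, compared with 34.8% of all rows. Between MZ and FO B cells, 3 were called higher in MZ (Rgs3, Rgs10 and Rgs18; 5.54% of all rows) and 0 lower (3.39%; 2, Rgs14 and Gnai2, were lower at an unadjusted p below 0.05), with 5 past the adjusted p alone (27.1%) and 5 without overlap (46.1%). Between BDL and MZ B cells, 1 was called higher in BDL (Rgs13; 3.47% of all rows) and 2 lower (Rgs3 and Rgs10; 4.34%), with 8 past the adjusted p alone (28.1%) and 7 without overlap (38.9%). The median log2 difference of the 9 genes was 0.45 for BDL minus FO, 0.03 for MZ minus FO and 0.50 for BDL minus MZ, and that of all rows was 0.05, -0.01 and 0.06. Nothing is read from these counts, since the genes were chosen with the differences known. All 3 comparisons share their libraries.

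**Figure D1:**
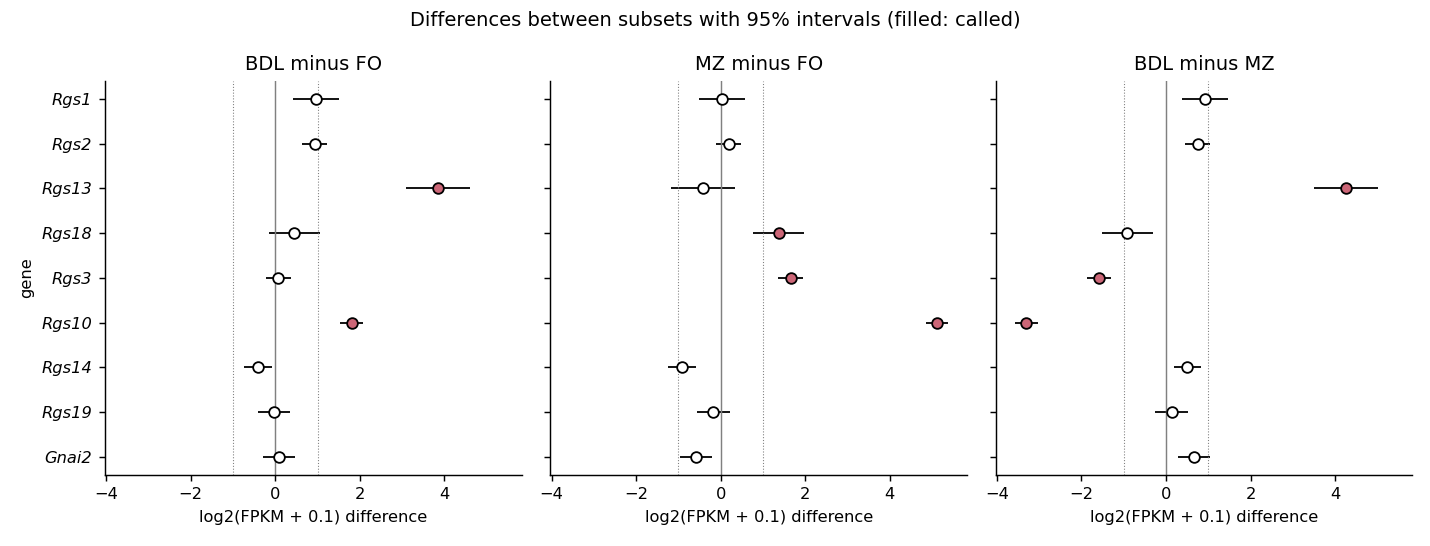
Differences in log2(FPKM + 0.1) of the 9 genes above the minimum level, for BDL minus FO, MZ minus FO and BDL minus MZ. Points are limma estimates over 3 libraries per subset, bars are 95% intervals, filled points mark called genes, and dotted lines mark a 2-fold difference. Rgs13 stood at 3.85 in BDL over FO and Rgs10 at 5.12 in MZ over FO.

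Rgs13 was present at several FPKM in BDL and near the floor of the table in FO and MZ B cells. It encodes a small R4 protein best known from germinal centre B cells and mast cells. The 3 FO libraries had 0.172, 0.222 and 0.268 FPKM, the BDL libraries 3.42, 6.37 and 4.12 FPKM, and the MZ libraries 0.133, 0.0676 and 0.251 FPKM. Every BDL library lay above every FO and MZ library, and FO and MZ B cells overlapped. The means were 0.22 ± 0.048 (SD, n = 3) in FO, 4.64 ± 1.54 in BDL and 0.15 ± 0.0927 FPKM in MZ B cells, a 21.0-fold ratio of BDL to FO and a 30.9-fold ratio of BDL to MZ. On the log2 scale the difference was 3.85 (95% interval 3.09 to 4.61) for BDL minus FO, 4.26 (3.50 to 5.02) for BDL minus MZ and -0.41 (-1.17 to 0.35) for MZ minus FO. The size depends on the constant added, since the FO and MZ levels are close to it: with 1 FPKM added the first 2 differences were 2.17 and 2.26, and with 0.01 FPKM added they were 4.31 and 4.98. The levels correspond to approximately 16, 20 and 24 fragments in the FO libraries, 295, 713 and 400 in the BDL libraries and 11, 6 and 25 in the MZ libraries. BDL replicate 2 had the highest value, and without it the difference to FO was 3.60. Within the 3 dates, BDL minus FO was 3.70, 4.33 and 3.52.

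Markers of the cell types in which Rgs13 is best known were measured beside it. Of 8 germinal centre markers, 5 averaged under 0.5 FPKM over the libraries, and the summed level of the list, most of it Bcl6, was 32.8 to 39.4 FPKM in FO, 30.4 to 32.8 FPKM in BDL and 10.5 to 12.4 FPKM in MZ B cells. The sum thus mainly follows Bcl6, and members at low levels did not all follow it. Some of them were higher in every BDL library than in every FO and MZ library, and others overlapped between BDL and FO. Of the list, 0 were called between BDL and FO B cells. All 6 mast cell and basophil markers averaged under 0.5 FPKM, their sum was 0.512 to 0.635 FPKM in FO, 0.44 to 0.573 FPKM in BDL and 0.847 to 1.03 FPKM in MZ B cells, and Fcer1a was listed at 0 in every library. Cell cycle markers summed to 4.87 to 5.35 FPKM in FO, 14.7 to 15.3 FPKM in BDL and 14.8 to 20.9 FPKM in MZ B cells, so that the sum was higher in BDL and in MZ than in FO B cells. Of the 6 plasma cell markers, Sdc1, which encodes CD138, was called higher in BDL than in both FO and MZ B cells, with 1.61, 1.22 and 1.67 FPKM in FO, 6.86, 9.58 and 8.96 FPKM in BDL and 0.114, 0.129 and 0.289 FPKM in MZ B cells. Prdm1, a transcription factor of plasma cells, had 0.376, 0.391 and 0.814 FPKM in FO, 0.725, 0.885 and 1.18 FPKM in BDL and 3.5, 4.25 and 5.41 FPKM in MZ B cells. The part of these cells and of cell cycling in the Rgs13 level was not tested.

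Rgs1 and Rgs2 were also highest in BDL, by slightly less than 2-fold. Rgs1 encodes an R4 protein that dampens chemokine receptor responses of lymphocytes. It had 9.7, 10.1 and 16.2 FPKM in the FO libraries, 21.4, 21.6 and 25.4 FPKM in the BDL libraries and 11, 9.62 and 16.0 FPKM in the MZ libraries. Replicate 3 was highest in each subset, and even so no FO or MZ library reached the lowest BDL library. Summed myeloid markers were also highest in replicate 3 of each subset, at 9.94, 10.2 and 12.1 FPKM in FO, BDL and MZ. So were summed T cell markers, at 2.91, 3.24 and 3.05 FPKM. The part of myeloid and T cells in the Rgs1 level was not tested. The means were 12 ± 3.62, 22.8 ± 2.24 and 12.2 ± 3.38 FPKM (SD, n = 3) in FO, BDL and MZ B cells, and the log2 differences were 0.96 (0.41 to 1.5) for BDL minus FO, 0.92 (0.38 to 1.47) for BDL minus MZ and 0.03 (-0.51 to 0.58) for MZ minus FO. Within the 3 dates, BDL minus FO was 1.13, 1.09 and 0.65. Without FO replicate 3 the difference to FO was 1.19, and without MZ replicate 3 the difference to MZ was 1.13, and Rgs1 was then called.

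Rgs2 encodes an R4 protein that acts on the Gq class of alpha subunits. It had 64.1, 67.1 and 80.7 FPKM in FO, 122, 155 and 128 FPKM in BDL and 73.4, 82.9 and 84.1 FPKM in MZ B cells, so that the BDL libraries lay above all others and FO and MZ libraries overlapped. It had the highest level of the RGS genes in every BDL and MZ library and in FO replicate 3, and was level with Rgs19 in FO replicates 1 and 2. The means were 70.6 ± 8.87, 135 ± 17.5 and 80.1 ± 5.85 FPKM (SD, n = 3), with log2 differences of 0.93 (0.64 to 1.23) for BDL minus FO, 0.75 (0.45 to 1.04) for BDL minus MZ and 0.19 (-0.11 to 0.48) for MZ minus FO. Within the 3 dates, BDL minus FO was 0.92, 1.2 and 0.67. Rgs2 was called higher in BDL than in FO without FO replicate 3 (1.03) or without BDL replicate 1 (1.0). Immediate early genes, which respond to handling of cells, summed to 2260 to 2670 FPKM in FO, 1730 to 2050 FPKM in BDL and 2390 to 3480 FPKM in MZ B cells. Most of the 10 genes had a lower mean in BDL than in FO B cells, whereas Egr1 and Atf3 had a higher mean. At an unadjusted p below 0.05 (limma), 3 were lower in BDL (Dusp1, Ier2 and Nr4a1) and 0 were higher. Nr4a1 had 431, 473 and 681 FPKM in FO and 285, 180 and 455 FPKM in BDL, and Egr1 had 45.5, 102 and 53.8 FPKM in FO and 85.6, 123 and 79 FPKM in BDL. The part of handling in the levels of Rgs1 and Rgs2 was not tested.

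**Figure D2:**
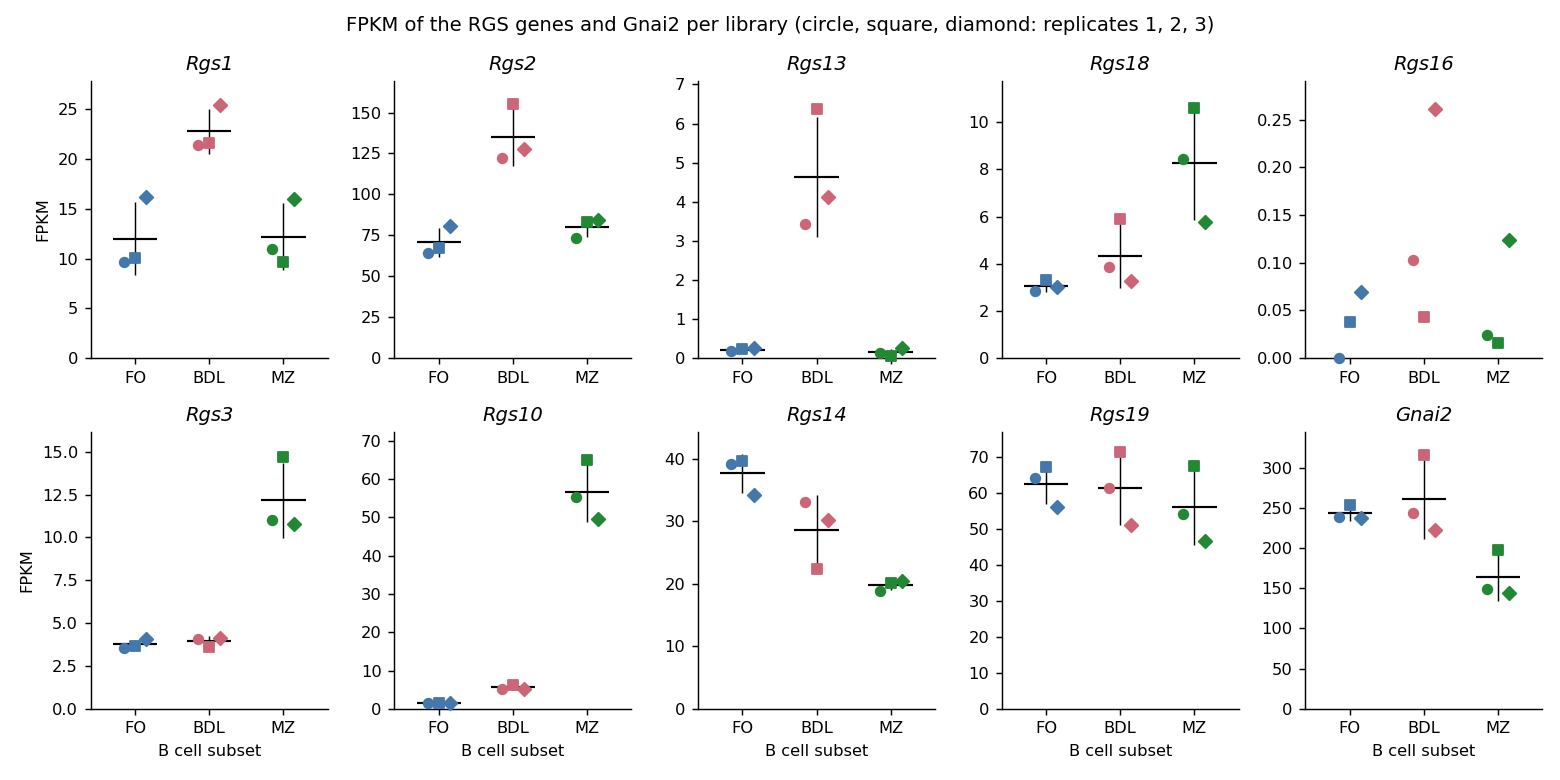
FPKM of the RGS genes and Gnai2 in each of the 9 libraries, by subset, on linear axes that start at 0. Each marker is a library, horizontal lines are means and vertical lines are SD over 3 libraries, which are not drawn for Rgs16, listed at 0 in FO replicate 1. BDL libraries stand highest for Rgs1, Rgs2 and Rgs13, and MZ libraries for Rgs3 and Rgs10.

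Rgs10 separated the 3 subsets completely, with the lowest level in FO, an intermediate level in BDL and the highest level in MZ B cells. It encodes a small R12 protein that acts on inhibitory alpha subunits. The FO libraries had 1.56, 1.47 and 1.55 FPKM, the BDL libraries 5.26, 6.32 and 5.25 FPKM and the MZ libraries 55.3, 65.1 and 49.5 FPKM. No subsets overlapped, and the spread within a subset was small beside the distance between subsets. The means were 1.53 ± 0.0463, 5.61 ± 0.614 and 56.7 ± 7.9 FPKM (SD, n = 3), that is 3.67-fold higher in BDL and 37.1-fold higher in MZ than in FO B cells, and 10.1-fold higher in MZ than in BDL. The log2 differences were 1.81 (1.54 to 2.07), 5.12 (4.85 to 5.38) and, for BDL minus MZ, -3.31 (-3.58 to -3.04). Within the 3 dates, BDL minus FO was 1.69, 2.03 and 1.70 and MZ minus FO was 5.06, 5.37 and 4.91.

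The level of Rgs10 in BDL can be set beside the MZ markers, whose sum was not higher in BDL than in FO B cells. In FO B cells most of that sum was Cr2, Notch2 and Dtx1, so that it says little of the markers at low levels. Of the 7 MZ markers, 2 were called higher in BDL than in FO B cells (Cd9 and Plxnd1), and 6 were called lower in BDL than in MZ B cells. S1pr3, not called, had 1.16, 1.02 and 1.27 FPKM in FO and 2.25, 2.18 and 2.0 FPKM in BDL. Cr2 and Notch2 were lower in every BDL than in every FO library, and Dtx1 and Cd1d1 overlapped. The part of MZ cells in the Rgs10 level of BDL was not tested.

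Rgs3 and Rgs18 had their highest mean in MZ B cells, and for both genes the BDL and FO libraries overlapped. Rgs3 encodes an RGS protein that acts on inhibitory and Gq alpha subunits and is annotated with 19 transcripts, which the FPKM per gene do not separate. It had 3.52, 3.68 and 4.06 FPKM in FO, 4.09, 3.61 and 4.14 FPKM in BDL and 11, 14.7 and 10.8 FPKM in MZ B cells. FO and BDL overlapped, and all MZ libraries lay above them. The means were 3.75 ± 0.276, 3.95 ± 0.294 and 12.2 ± 2.17 FPKM (SD, n = 3), with log2 differences of 1.66 (1.36 to 1.95) for MZ minus FO, -1.59 (-1.88 to -1.29) for BDL minus MZ and 0.07 (-0.23 to 0.37) for BDL minus FO.

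Rgs18 encodes an R4 protein best known from platelets and megakaryocytes. It had 2.84, 3.31 and 3.03 FPKM in FO, 3.87, 5.9 and 3.26 FPKM in BDL and 8.43, 10.6 and 5.77 FPKM in MZ B cells. The MZ libraries lay above the FO libraries, whereas BDL replicate 2 reached above the lowest MZ library and BDL replicate 3 below the highest FO library. The means were 3.06 ± 0.237, 4.34 ± 1.39 and 8.28 ± 2.44 FPKM (SD, n = 3), with log2 differences of 1.37 (0.77 to 1.96) for MZ minus FO, -0.92 (-1.51 to -0.32) for BDL minus MZ and 0.45 (-0.14 to 1.05) for BDL minus FO. The difference between BDL and MZ B cells was called without BDL replicate 2 (-1.16), without MZ replicate 3 (-1.15) and with upper quartile scaling (-1.03). Of 10 platelet and megakaryocyte markers, 8 averaged under 0.5 FPKM and Ppbp was listed at 0 in every library. Their sum was 6.9 to 7.64 FPKM in FO, 4.66 to 6.16 FPKM in BDL and 3.07 to 3.89 FPKM in MZ B cells, most of it Itgb3 and Gp1ba, and the part of platelets in the Rgs18 level was not tested.

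Rgs14 showed the opposite order to Rgs10, highest in FO and lowest in MZ B cells. It encodes an R12 protein that carries a Ras binding region and a GoLoco motif, by which it holds inhibitory alpha subunits in the GDP-bound state. It had 39.2, 39.6 and 34.1 FPKM in FO, 33.1, 22.3 and 30.2 FPKM in BDL and 18.9, 20.1 and 20.4 FPKM in MZ B cells. No subsets overlapped, although the highest BDL library came within about 1 FPKM of the lowest FO library. The means were 37.6 ± 3.04, 28.5 ± 5.56 and 19.8 ± 0.779 FPKM (SD, n = 3), and the log2 differences were -0.92 (-1.25 to -0.59) for MZ minus FO, -0.41 (-0.74 to -0.08) for BDL minus FO and 0.50 (0.18 to 0.83) for BDL minus MZ. BDL replicate 2 was the lowest of its subset, and without it the difference to FO was -0.25 and the difference to MZ 0.67.

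Rgs19, an RZ protein also called GAIP that acts on inhibitory alpha subunits, did not separate the subsets. It had 64.0, 67.1 and 56.1 FPKM in FO, 61.4, 71.2 and 51.0 FPKM in BDL and 54.2, 67.3 and 46.6 FPKM in MZ B cells, and all 3 ranges overlapped. Replicate 2 was highest and replicate 3 lowest in each subset. The log2 differences were -0.04 (-0.42 to 0.35) for BDL minus FO, -0.17 (-0.55 to 0.22) for MZ minus FO and 0.13 (-0.25 to 0.51) for BDL minus MZ, and the last was -0.02 after quantile normalization.

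Rgs16, an R4 gene that is inducible in lymphocytes, was near the floor of the table and was not tested. It was listed at 0 in FO replicate 1 and had 0.0374 and 0.0696 FPKM in the other FO libraries, 0.103, 0.0427 and 0.261 FPKM in BDL and 0.0241, 0.0164 and 0.124 FPKM in MZ B cells. These levels stand for approximately 0 to 38 fragments per library, and all subsets overlapped.

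Gnai2, the alpha subunit on which many of these proteins act, was lower in MZ B cells than in the other subsets. It had 239, 254 and 237 FPKM in FO, 243, 316 and 222 FPKM in BDL and 149, 197 and 144 FPKM in MZ B cells. All MZ libraries lay under all FO and BDL libraries, and FO and BDL overlapped. The means were 243 ± 9.08, 260 ± 49.7 and 164 ± 28.9 FPKM (SD, n = 3). The log2 differences were -0.59 (-0.96 to -0.21) for MZ minus FO, 0.67 (0.29 to 1.05) for BDL minus MZ and 0.08 (-0.30 to 0.46) for BDL minus FO, all within 2-fold, and the last was -0.07 without BDL replicate 2.

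The RGS transcripts of a library were then expressed as shares of the summed FPKM of the 9 RGS genes. The sum was 191 ± 5.67 FPKM in FO, 266 ± 22.6 FPKM in BDL and 246 ± 21.6 FPKM in MZ B cells (SD, n = 3). Rgs2 took 36.9% ± 3.72 of it in FO, 50.6% ± 2.58 in BDL and 32.7% ± 2.87 in MZ B cells. Rgs10 took 0.799% ± 0.0399 in FO, 2.11% ± 0.0505 in BDL and 23.0% ± 1.59 in MZ B cells. Rgs14 took 19.7% ± 2.02, 10.9% ± 2.85 and 8.11% ± 0.642, and Rgs19 took 32.7% ± 3.53, 22.9% ± 2.33 and 22.7% ± 2.53. Although Rgs13 had the largest ratio between BDL and FO B cells, it took 1.72% ± 0.424 of the RGS transcripts of BDL, compared with 0.115% ± 0.0219 in FO and 0.0631% ± 0.0415 in MZ B cells. Rgs2, Rgs14 and Rgs19 together took 89.3% ± 1.81 in FO, 84.4% ± 1.05 in BDL and 63.6% ± 0.959 in MZ B cells. Per FPKM of Gnai2, the summed RGS level was 0.773, 0.76 and 0.828 in FO, 1.05, 0.924 and 1.14 in BDL and 1.56, 1.37 and 1.62 in MZ B cells, without overlap between the subsets.

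**Figure D3:**
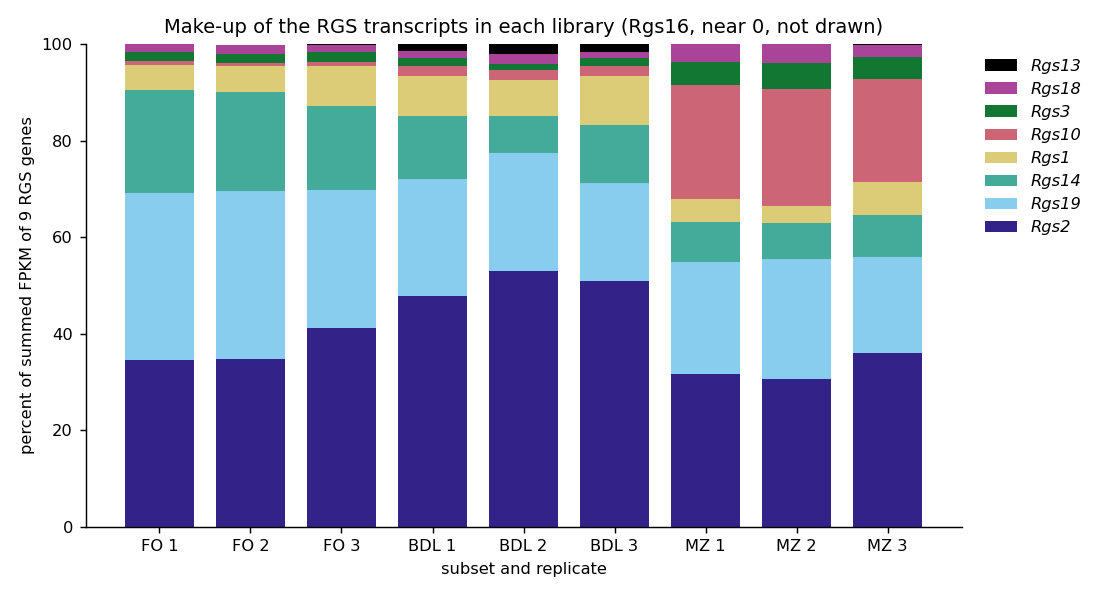
Share of each RGS gene in the summed FPKM of the 9 RGS genes, in percent, for each library. Rgs2 took the largest share in BDL (50.6% on average) and Rgs10 took 23.0% in MZ but under 3% in every FO and BDL library. Rgs16 is not drawn because its share was near 0.

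A stretch of chromosome 1 holds 5 RGS genes, Rgs2, Rgs13, Rgs1, Rgs21 and Rgs18, in that order and all on the minus strand. In GENCODE M1 on NCBIM37, the assembly also called mm9, Rgs2 lies from 145846468 to 145851291, Rgs13 from 145985797 to 146024502, Rgs1 from 146091102 to 146096372, Rgs21 from 146366820 to 146388442 and Rgs18 from 146599813 to 146622565. The stretch spans 776.1 kb, with gaps of 134.5, 66.6, 270.4 and 211.4 kb between the genes, and Rgs16 lies 8964.9 kb beyond it on the plus strand, from 155587479 to 155592598. The 3 genes that were highest in BDL, Rgs2, Rgs13 and Rgs1, are next to each other. Rgs21 was listed at 0 in all libraries and Rgs18, the last in the row, was highest in MZ B cells. On the other side of Rgs2, the neighbours Uchl5, Glrx2 and Cdc73 were tested and not called in any comparison. Uchl5, a deubiquitinase and the nearest of them, had 7.81 ± 0.499, 10.8 ± 2.25 and 8.13 ± 1.41 FPKM (SD, n = 3) in FO, BDL and MZ B cells (limma, log2 difference of BDL minus FO 0.45, adjusted p = 0.134). The remaining neighbours, Trove2 and B3galt2, were under the minimum level.

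**Figure D4:**
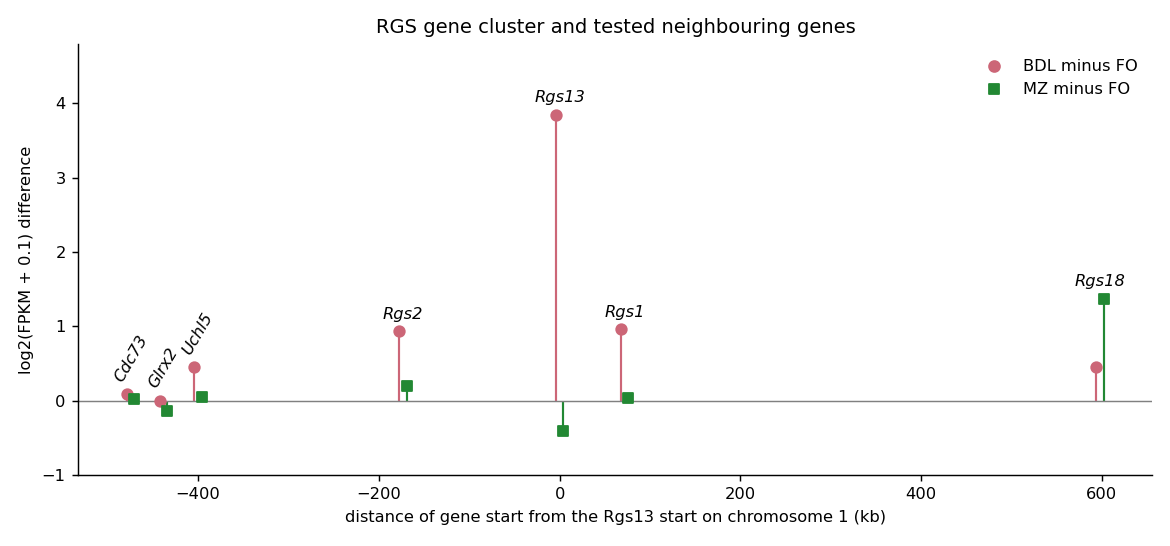
Differences in log2(FPKM + 0.1) of BDL minus FO (circles) and MZ minus FO (squares) for the RGS genes of the chromosome 1 cluster and the tested neighbours, against the distance of the gene start from that of Rgs13 in kb. Rgs2, Rgs13 and Rgs1 stand at 0.93, 3.85 and 0.96 in BDL over FO, and Rgs18 at 1.37 in MZ over FO.

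The other genes lie apart. In the same annotation Rgs3 lies on chromosome 4 from 62220881 to 62364052 (plus strand), Rgs10 on chromosome 7 from 135517135 to 135562272 (minus strand), Rgs14 on chromosome 13 from 55471093 to 55486048 (plus strand), Rgs19 on chromosome 2 from 181423124 to 181428682 (minus strand) and Gnai2 on chromosome 9 from 107516461 to 107537673 (minus strand). The proteins translated from the longest coding transcripts were 158 amino acids long for Rgs13, 181 for Rgs10, 201 for Rgs16, 209 for Rgs1, 211 for Rgs2, 235 for Rgs18, 243 for Rgs19, 547 for Rgs14 and 966 for Rgs3, and 355 for Gnai2. In pairwise local alignments, Rgs1 and Rgs18 were the closest, with 55.5% identical residues over 128 aligned positions. Rgs10 and Rgs14 of the R12 subfamily, which had opposite orders of level over the subsets, were 49.6% identical over 141 positions. Rgs13 shared 47.3% with Rgs2 and 45.9% with Rgs1, its neighbours on the chromosome, and 32.3% with Rgs10.

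The wider pathway was covered by lists of 97 further genes, of which 59 passed the minimum level. These were tested with limma, with p-values adjusted over all 11597 rows. The lists were chosen with earlier results of these data known. The shares called are therefore a description, nothing is read from their distance to all rows, and the adjusted p-values carry the same limit. Between BDL and FO B cells, 1 of the 59 was called (1.69%), compared with 1.91% of all rows. Between MZ and FO B cells 12 were called (20.3%; 6 higher and 6 lower in MZ), compared with 8.92% of all rows, and between BDL and MZ B cells 9 were (15.3%; 4 higher and 5 lower in BDL), compared with 7.8% of all rows. The median log2 difference of the 59 was -0.04, -0.11 and 0.05, respectively. Of the 12 other RGS genes of the list, Rgs12 alone passed the minimum level, with means of 0.47, 0.73 and 0.855 FPKM in FO, BDL and MZ B cells, and it was not called in any comparison (limma, adjusted p = 0.137 for BDL and FO, 0.0273, with a difference under 2-fold, for MZ and FO, and 0.527 for BDL and MZ B cells). Rgs5, Rgs21 and Rgs22 were listed at 0 in every library.

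Among the 8 tested of 9 genes with an RGS-like domain in another protein, Arhgef12, an exchange factor driven by G12 class subunits, rose in MZ over FO B cells. It had 3.26, 3.27 and 3.51 FPKM in FO, 3.98, 3.93 and 4.57 FPKM in BDL and 7.7, 7.46 and 8.4 FPKM in MZ B cells, with a log2 difference of MZ minus FO of 1.21 (SE 0.0872, adjusted p = 2.81e-05). The exchange factors Arhgef1 and Arhgef11 of the same list went the other way within 2-fold and were not called. Their log2 differences of MZ minus FO were -0.54 (limma, adjusted p = 0.0901) and -0.48 (adjusted p = 0.00495). Arhgef1 had the highest level of this list, with means of 324 FPKM in FO and 225 FPKM in MZ B cells. Of the 14 other alpha subunits, 8 were tested, and Gna15, a Gq class subunit of blood cells, fell in MZ compared with FO B cells. It had 4.94, 5.43 and 4.82 FPKM in FO, 2.8, 3.2 and 2.79 FPKM in BDL and 1.37, 1.74 and 1.65 FPKM in MZ B cells, with a log2 difference of MZ minus FO of -1.62 (SE 0.113, adjusted p = 2.41e-05) and, within 2-fold, of BDL minus FO of -0.77 (SE 0.113, adjusted p = 0.00663). Gnaq, of the same class, went the other way within 2-fold, with means of 5.0, 6.38 and 7.38 FPKM in FO, BDL and MZ B cells. Its log2 difference of MZ minus FO was 0.55 (limma, adjusted p = 0.00161), and that of Gna11, also of this class, was -0.22 (adjusted p = 0.453). Of 17 beta and gamma subunit genes, 8 were tested and 0 were called by limma in each comparison, with 2, 1 and 3 of them past an unadjusted p of 0.05 for BDL and FO, MZ and FO, and BDL and MZ B cells. Gng7 and Gnb4 were among those under the minimum level. Gng7 had means of 0.0137, 0.0315 and 0.559 FPKM in FO, BDL and MZ B cells. For Gnb4 the means were 0.233, 0.644 and 0.0638 FPKM.

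Receptor kinases switch off activated receptors upstream of the G protein. Of 13 kinases, arrestins and modulators, all tested, 2 kinases, Adrbk2 and Grk5, were called in both comparisons with MZ B cells. The other kinases were not called, with log2 differences of MZ minus FO of -0.67 for Adrbk1, -0.69 for Grk6 and 0.10 for Grk4. Adrbk1 (limma, adjusted p = 0.00108) and Grk6 (adjusted p = 0.00215) missed this call on the 2-fold limit alone. For both, every MZ library lay under every FO library. Mean levels of Adrbk1 were 215 FPKM in FO and 136 FPKM in MZ, and those of Grk6 were 180 and 112 FPKM. These were above the means of Adrbk2 (1.65 and 19.7 FPKM) and Grk5 (1.89 and 5.88 FPKM). Adrbk2, which encodes GRK3, had 1.25, 1.91 and 1.78 FPKM in FO, 1.12, 0.901 and 1.57 FPKM in BDL and 17.0, 20.0 and 22.3 FPKM in MZ B cells. It was higher in MZ by 3.52 on the log2 scale over FO (SE 0.22, adjusted p = 1.41e-05), and BDL minus MZ was -3.96 (adjusted p = 1.01e-05). Grk5 had 2.11, 1.78 and 1.77 FPKM in FO, 2.59, 2.6 and 1.82 FPKM in BDL and 5.84, 6.69 and 5.1 FPKM in MZ B cells, with a log2 difference of MZ minus FO of 1.58 (SE 0.163, adjusted p = 0.000188) and of BDL minus MZ of -1.30 (adjusted p = 0.000658).

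Of 22 effectors, 12 were tested and 3 were called (25%) in both comparisons with MZ B cells, where 8.92% of all rows were called between MZ and FO and 7.8% between BDL and MZ B cells. The phosphodiesterases Pde4a and Pde4d, which break down the cyclic AMP whose synthesis inhibitory alpha subunits block, were called higher in MZ than in FO B cells. The other phosphodiesterases tested went the other way and were not called. Their log2 differences of MZ minus FO were -0.49 for Pde4b, -0.71 for Pde4c and -0.30 for Pde7a. Pde4b had the highest level of these genes, with means of 67.1 FPKM in FO and 48.7 FPKM in MZ B cells. Pde4a had 2.61, 2.63 and 2.72 FPKM in FO, 4.72, 4.31 and 5.07 FPKM in BDL and 21.5, 24.6 and 21.3 FPKM in MZ B cells (MZ minus FO 3.03, SE 0.0883, adjusted p = 5.58e-07; BDL minus MZ -2.23, adjusted p = 2.57e-06). As with Rgs10, its BDL libraries lay between the FO and the MZ libraries, with a log2 difference of BDL minus FO of 0.80 (adjusted p = 0.00195), which is under 2-fold. Pde4d had 0.845, 0.949 and 1.35 FPKM in FO, 0.693, 0.825 and 0.917 FPKM in BDL and 10.7, 17.2 and 12.9 FPKM in MZ B cells (MZ minus FO 3.57, SE 0.217, adjusted p = 1.23e-05; BDL minus MZ -3.89, adjusted p = 1.02e-05). Pik3cg, the phosphoinositide 3-kinase driven by beta and gamma subunits, had 15.6, 14.9 and 13 FPKM in FO, 14.5, 18.5 and 12.4 FPKM in BDL and 6.84, 7.29 and 5.56 FPKM in MZ B cells. Against FO B cells it fell in MZ B cells, with a log2 difference of -1.14 (SE 0.161, adjusted p = 0.00115), and BDL minus MZ was 1.18 (adjusted p = 0.00106).

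Of 10 migration receptors, 9 were tested. Ccr6 was the only pathway gene called between BDL and FO B cells, with 87.6, 88.6 and 81.1 FPKM in FO and 36.2, 38.2 and 34.9 FPKM in BDL (limma, log2 difference -1.23, SE 0.103, adjusted p = 0.000551). Within 2-fold, Gpr183 was lower in BDL than in FO B cells (-0.93, adjusted p = 0.0056) and S1pr3 higher (0.85, adjusted p = 0.0452). In MZ B cells S1pr3 was called higher (log2 difference 5.56 to FO) and Ccr7 (-1.77), S1pr4 (-1.67), Cxcr4 (-1.60) and, as in BDL, Ccr6 (-1.07) were called lower than in FO B cells. Compared with MZ B cells, Ccr7 (1.89), S1pr4 (1.74) and Cxcr4 (1.27) were called higher in BDL and S1pr3 (-4.71) lower.

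**Figure D5:**
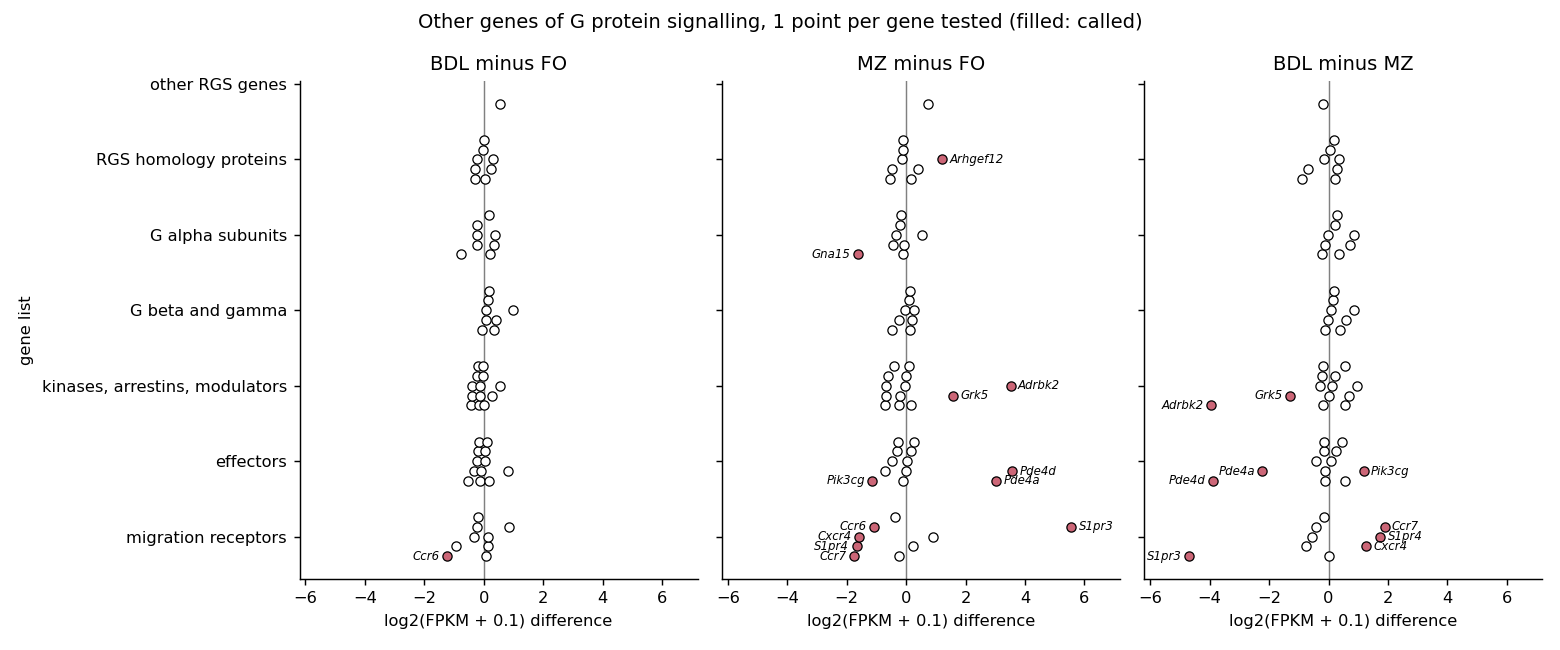
Differences in log2(FPKM + 0.1) of the 59 tested pathway genes, by list, for BDL minus FO, MZ minus FO and BDL minus MZ. Each point is a gene, filled and named where called. The plot shows 1 called gene for BDL minus FO, Ccr6, compared with 12 for MZ minus FO and 9 for BDL minus MZ.

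The genes whose pattern was most like that of each RGS gene were found by the Pearson correlation of log2(FPKM + 0.1) over the 9 libraries, among all tested rows outside the 10 genes. The points fall into 3 subsets and share their libraries, so that the correlations are a description of likeness only. Closest to Rgs13 were Cplx2 (r = 0.996; 0.626, 3.1 and 0.589 FPKM on average in FO, BDL and MZ B cells), Ly6c2 (r = 0.985; 3.31, 15.7 and 2.61 FPKM) and Ebna1bp2 (r = 0.984; 11.2, 14.6 and 10.7 FPKM). Closest to Rgs10 were Galm (r = 0.998; 0.163, 0.476 and 2.21 FPKM), the tetraspanin gene Cd9 (r = 0.997; 1.98, 7.32 and 73.8 FPKM) and Sirpa (r = 0.997; 1.13, 2.39 and 13 FPKM), all with BDL between FO and MZ B cells. Closest to Gnai2 were Cnn2 (r = 0.997), Plcg2 (r = 0.995) and Ppdpf (r = 0.994), and closest to Rgs3 were C030013G03Rik, Rrbp1 and Ube2e2 (r = 0.995 each). Rgs2 was most like Ube2a (r = 0.99), Smarcc1 (r = 0.985) and Phf11b (r = 0.984), and Rgs1 most like U2af1 (r = 0.975), Lztfl1 (r = 0.973) and Slc16a1 (r = 0.958). Rgs14 was most like Gse1 (r = 0.991), Cyp2d22 (r = 0.988) and Cul4a (r = 0.987), and Rgs18 most like Fundc1 (r = 0.988), Mbtps2 (r = 0.988) and Eps15 (r = 0.987). For Rgs19 they were Zbtb14 (r = 0.987), Tspo (r = 0.974) and Mis12 (r = 0.974). Among the 10 genes themselves, Rgs13 correlated with Rgs2 at 0.935 and with Rgs1 at 0.893, and Rgs10 with Rgs3 at 0.938, with Rgs18 at 0.909 and with Rgs14 at -0.931.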

How the data were processed

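RNA-seq of 9 libraries was analysed. The authors aligned reads to mm9 with TopHat2 2.1.0 and computed FPKM with Cufflinks, and the deposited FPKM table has 1 value per gene and library. The Cufflinks version and annotation are not given in the sources used here. The labels describe single-end reads without strand and the methods a stranded kit. The study compared subsets with Cuffdiff, which needs aligned reads that were not analysed here. The authors' Cuffdiff table holds fold changes and p-values and was not used.

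FPKM were used as deposited. Rows averaging 0.5 FPKM or more were fitted as log2(FPKM + 0.1) with limma 3.58.1 in R 4.3.3, with subset as the only term, all 9 libraries and eBayes with a trend, with Benjamini-Hochberg adjustment over all rows fitted. Calls needed an adjusted p under 0.05 and a 2-fold difference, the thresholds of the study. The fitting code was run on simulated libraries with independent normal noise. These had no date effect and no subset differences besides a change added in BDL, so that they check the code and not the results. P-values measure the spread between 3 pools of mice per subset. FPKM sums were 446033 to 517208 per library. The table gives no counts, and 1 fragment on 1 kb of transcript was estimated at 0.0138 to 0.0186 FPKM from the steps between low values, of which 71.2% to 77.6% lay within 0.1 of a whole number, so that fragment numbers are approximate and cover counting error only.

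Sample titles with the same date pair the libraries by label. The correlation across genes of deviations from the subset means, for replicates 1, 2 and 3, was 0.147, 0.0491 and -0.0623 between BDL and FO, 0.0238, 0.0138 and 0.0077 between MZ and FO, and 0.1, 0.244 and 0.182 between BDL and MZ. The study names no such term, so it was tried as an alternative.

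The 10 genes and all lists were chosen with earlier results of these data known. Named are all 10 genes, the up to 3 called genes of each pathway list with the largest differences in each direction, the 3 genes most like each of the 10, summed markers and markers at 0, and genes said to be chosen later. The neighbours Uchl5, Glrx2, Cdc73, Trove2 and B3galt2, and Rgs5, Rgs12, Rgs22, Arhgef1, Arhgef11, Gnaq, Gna11, Adrbk1, Grk4, Grk6, Pde4b, Pde4c, Pde7a, Adcy9, S1pr1, Gpr183, Gng7, Gng12, Gnb4, Ccdc88a and single marker and immediate early genes were named after their values were seen. Alternatives were another constant, minimum level or scaling, the compared subsets alone, a replicate block, no trend, no fold minimum and each library left out. Proteins were translated from GENCODE M1 and aligned with Biopython 1.88, and figures drawn with matplotlib 3.10.9 in Python 3.11.15. A marker gene of the germinal centre list is not reported here by name.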

Additional observations from a re-analysis of the deposited data

How the results depend on the processing

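Under 18 alternatives, besides dropping the fold minimum, the RGS genes called in the report were called each time: Rgs10 and Rgs13 in BDL over FO, Rgs3, Rgs10 and Rgs18 in MZ over FO, and Rgs3, Rgs10 and Rgs13 between BDL and MZ B cells. These genes were chosen on these values, so that this lends their calls no support. With the fold minimum dropped, 4, 5 and 8 of the 9 genes tested passed for BDL and FO, MZ and FO, and BDL and MZ B cells, and 8, 23 and 22 pathway genes did. Leaving out 1 library gave 2 to 4 of the 9 genes for BDL and FO (4 without FO replicate 3, which adds Rgs1 and Rgs2, and 3 without BDL replicate 1, which adds Rgs2) and 3 to 5 for BDL and MZ (5 without MZ replicate 3, which adds Rgs1 and Rgs18, and 4 without BDL replicate 2, which adds Rgs18). Of all rows, 166 to 221 were then called for BDL and FO and 883 to 960 for BDL and MZ. Between BDL and FO B cells, Gng12 joined Ccr6 among the pathway genes with 0.01 FPKM added, for 2 genes, and leaving out 1 library gave 1 to 2 genes, with Gng12 added without FO replicate 2, FO replicate 3 or BDL replicate 1. With no minimum level Gnb4 was added instead, for 2 genes. The same setting gave 15 pathway genes between MZ and FO B cells, adding Gng7 (2.53), Gnb4 (-1.01) and Adcy9 (1.15). Between BDL and MZ B cells it gave 11, adding Gng7 (-2.33) and Gnb4 (2.19). Other pathway genes that joined when 1 library was left out were S1pr1 in MZ over FO B cells (without FO replicate 3 or MZ replicate 3) and Ccdc88a between BDL and MZ B cells (without BDL replicate 3 or MZ replicate 1). The replicate block left the counts at 2, 3 and 3 of the 9 genes and 1, 12 and 9 pathway genes and changed no call among them. Over all rows, adding 1 FPKM moved the calls from 221 to 94 for BDL and FO and from 1035 to 674 for MZ and FO, and dropping the fold minimum gave 896, 3141 and 3255, compared with 221, 1035 and 905. Upper quartile scaling moved the median of all rows for BDL minus MZ from 0.06 to -0.05. With 1 FPKM added, the log2 difference of BDL minus FO went from 3.85 to 2.17 for Rgs13 and from 1.81 to 1.38 for Rgs10, and that of MZ minus FO from 5.12 to 4.5 for Rgs10. Without BDL replicate 2, the difference for Rgs14 went from -0.41 to -0.25 for BDL minus FO and from 0.50 to 0.67 for BDL minus MZ. Apart from the alternatives' own construction, causes were not tested. Depth limits Rgs16 and the FO and MZ levels of Rgs13, which rest on few fragments.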
